A study of Mus musculus with 98 samples.

Results

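Liver sinusoidal endothelial cells line the capillaries of the liver. They carry open pores and no continuous basement membrane, they clear waste proteins, hyaluronan and immune complexes from blood with scavenger and Fc receptors, and they send Wnt, bone morphogenetic protein and hepatocyte growth signals to neighbouring hepatocytes. The genes described here are 8 mouse genes that are widely used to mark these cells: Stab1, Stab2, Lyve1, Clec4g, Fcgr2b, Oit3, Pecam1 and Kdr. They were chosen by symbol among the 19689 mouse rows of the liver count table, and each of the 8 had a row. Pecam1 and Kdr are shared by all endothelium, and the other 6 are more typical of the sinusoid, although macrophages also use Stab1 and Fcgr2b and lymphatic vessels also use Lyve1.

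RNA was sequenced from FRGN mice, which combine Fah-/-, Rag2-/- and Il2rg-/- deletions on a non-obese diabetic background in both arms. Without Fah, the last enzyme of tyrosine breakdown, host hepatocytes die unless nitisinone is given, and without Rag2 and Il2rg the mice lack lymphocytes, so transplanted hepatocytes can fill the liver. Human hepatocytes were injected into the spleen in the Hu arm (livers labelled humanized), and murine hepatocytes in the Mu arm (control livers labelled muranized). Mice of both arms received cycles of nitisinone, SMX/TMP antibiotics against infection and dextrose in drinking water, and ages are not given in the labels. Livers were collected around the clock, at zeitgeber time (ZT, counted in hours from lights on) 2, 6, 10, 14, 18 and 22, which gave 15 Hu livers (2 or 3 per time) and 12 Mu livers (2 per time); libraries of muscle and of 2 hypothalamic regions, the arcuate (ARC) and suprachiasmatic (SCN) nuclei, served as other tissues. Endothelial cells of a Hu liver can be read in the mouse rows, since the graft is human. In a Mu liver graft and host are both mouse and share the same rows.

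Total counts were 97.1 M to 118.3 M (M for 1000000 counts) in Mu livers. In Hu livers they were 22.95 M to 122.2 M, with the ZT 22 replicate 2 library lowest. Human rows held 15.9 to 93.1% of the counts of a Hu liver (median 58.7%) and 0.00592 to 0.0204% of a Mu liver, and mouse rows of Hu livers held 7.70 M to 87.9 M counts. Defining genes of other cell types were checked in mouse rows. Mouse hepatocyte genes were still present in every Hu liver, where 10 of them summed to 982 CPM (counts scaled to a library of 1000000) of all rows in the liver with the highest human share and to a median of 29187 CPM over the 15 Hu livers, against a median of 92043 CPM in Mu livers. Fah was lower in Hu livers (9.45 ± 5.87 CPM of all rows, SD, n = 15, against 547 ± 74.0, n = 12). The lymphatic chemokine gene Ccl21a had 0 to 5 counts per liver, and the T cell gene Cd3g 0 to 530 counts, with the highest in the Hu liver ZT 6 replicate 2.

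All 8 genes are protein-coding and lie on the minus strand of GRCm38: Stab1 at chr14:31139013-31168641, Stab2 at chr10:86841198-87008025, Lyve1 at chr7:110850607-110863239, Clec4g at chr8:3707064-3720651, Fcgr2b at chr1:170958617-170976547, Oit3 at chr10:59422958-59441778, Pecam1 at chr11:106654217-106750628 and Kdr at chr5:75932827-75978458. Promoter entries from RefSeq (GRCm38.p6) matched 5 of the 8 (Clec4g, Fcgr2b, Kdr, Stab1 and Stab2). In these, 250 bases before the start were searched on both strands for letters that endothelial and clock factors are known to favour. They were AGGAAG for ETS factors, AGATAA for GATA factors and CACGTG for the E-box. The letters TATAAA of the TATA box were searched as well. The ETS letters were in 3 of 5 windows (Clec4g, Stab1 and Stab2), and 29.5% of all 32851 windows of this length hold them. GATA letters and E-box letters were in 0 of 5, against 9.99% and 6.02% of all windows. TATA box letters were in 1 of 5 (Clec4g, as TTTATA, so on the strand opposite to the gene), against 12.4% on either strand. The windows of the scavenger receptor Stab1 and the lectin Clec4g are shown because they end where the annotated gene begins and because the 2 genes had fitted differences of opposite sign in all rows, given further on. They cover chr14:31168642-31168891 and chr8:3720652-3720901, both read on the minus strand, with the ETS letters in capitals on either strand and the TATA box letters of Clec4g also in capitals; a pair of ETS matches overlaps in Clec4g.
Stab1: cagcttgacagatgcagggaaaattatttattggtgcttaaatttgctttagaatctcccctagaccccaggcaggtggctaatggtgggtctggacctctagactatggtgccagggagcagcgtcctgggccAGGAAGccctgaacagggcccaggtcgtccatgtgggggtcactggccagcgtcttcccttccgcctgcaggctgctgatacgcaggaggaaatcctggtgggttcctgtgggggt
Clec4g: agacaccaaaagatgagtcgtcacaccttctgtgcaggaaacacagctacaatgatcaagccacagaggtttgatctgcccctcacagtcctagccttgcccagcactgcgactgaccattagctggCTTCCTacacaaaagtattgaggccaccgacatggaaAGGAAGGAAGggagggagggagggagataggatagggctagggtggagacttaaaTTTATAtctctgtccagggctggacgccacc

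In mouse rows, with each library scaled to its own mouse counts and then by TMM, which centres most genes near no change, the 8 sinusoidal genes were all higher in Hu than in Mu livers. edgeR's quasi-likelihood test with Benjamini-Hochberg adjustment over all 14977 genes called 8 of 8 members higher, where 42.5% of all genes tested were called higher. The members' log2 differences ran from 0.59 to 1.41 with a median of 0.78, against a median of 0.07 over all genes. Without TMM they ran from 1.35 to 2.10 with a median of 1.55, against 0.74 over all genes, and 8 of 8 were called higher, where 72.6% of all genes were. Bulk libraries cannot tell fewer cells of a type from less RNA per cell, and the rule on mouse rows gives a level relative to all mouse RNA of the liver.

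Lyve1, a hyaluronan receptor, had 2.12, 3.91 and 7.20 CPM of mouse rows (lowest, median, highest) in Mu livers and 9.26, 17.5 and 32.5 in Hu livers. Every Hu liver lay above every Mu liver, and the fitted difference was 1.41 ± 0.16 (log2, SE; adjusted p = 3.65e-08, edgeR). Stab1, a scavenger receptor, had 72.0, 78.4 and 84.0 CPM in Mu livers and 121, 219.7 and 971 in Hu livers. The groups did not overlap either, and the difference was 1.12 ± 0.17 (adjusted p = 2.47e-06, edgeR). The share of all genes whose groups do not overlap was not computed, here or for the other members. Its relative Stab2, the main hyaluronan clearing receptor of the sinusoid, had 69.3, 82.1 and 91.8 CPM in Mu livers and 88.2, 175.0 and 980.0 in Hu livers. All Hu livers except 1 exceeded the whole Mu range, with a difference of 0.75 ± 0.21 (adjusted p = 0.00198, edgeR).

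The immune receptors and Oit3, a secreted marker protein whose role is less clear, had fitted differences of 0.59 to 0.73. Fcgr2b, the inhibitory Fc receptor that takes up small immune complexes, had 68.4, 77.0 and 83.9 CPM in Mu livers and 76.8, 153.7 and 869 in Hu livers. All but 1 Hu liver were above the Mu range, and the difference was 0.67 ± 0.19 (adjusted p = 0.00218, edgeR). Clec4g, a lectin that binds glycans on pathogens and cells, had 54.2, 64.1 and 79.7 CPM in Mu and 62.0, 128.1 and 604 in Hu livers. The 2 Hu livers with the lowest human share fell within the Mu range, and the difference of 0.59 ± 0.17 was the smallest of the 8 (adjusted p = 0.00308, edgeR). Oit3 had 19.4, 28.9 and 34.6 CPM in Mu and 28.8, 64.9 and 356 in Hu livers, a difference of 0.73 ± 0.20 (adjusted p = 0.00194, edgeR) with 13 of 15 Hu livers beyond the Mu range.

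Both genes of general endothelium were higher too. Pecam1, the adhesion protein CD31 of endothelial junctions, had 20.8, 24.2 and 28.2 CPM in Mu and 34.6, 75.4 and 349 in Hu livers. Kdr, the main receptor for vascular endothelial growth factor, had 47.8, 71.3 and 78.7 CPM in Mu and 86.2, 156.7 and 793 in Hu livers. Neither gene overlapped between arms, a separation whose share over all genes was not computed. Their differences were 1.17 ± 0.19 for Pecam1 (adjusted p = 6.31e-06, edgeR) and 0.81 ± 0.18 for Kdr (adjusted p = 0.000349, edgeR).

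**Figure D1:**
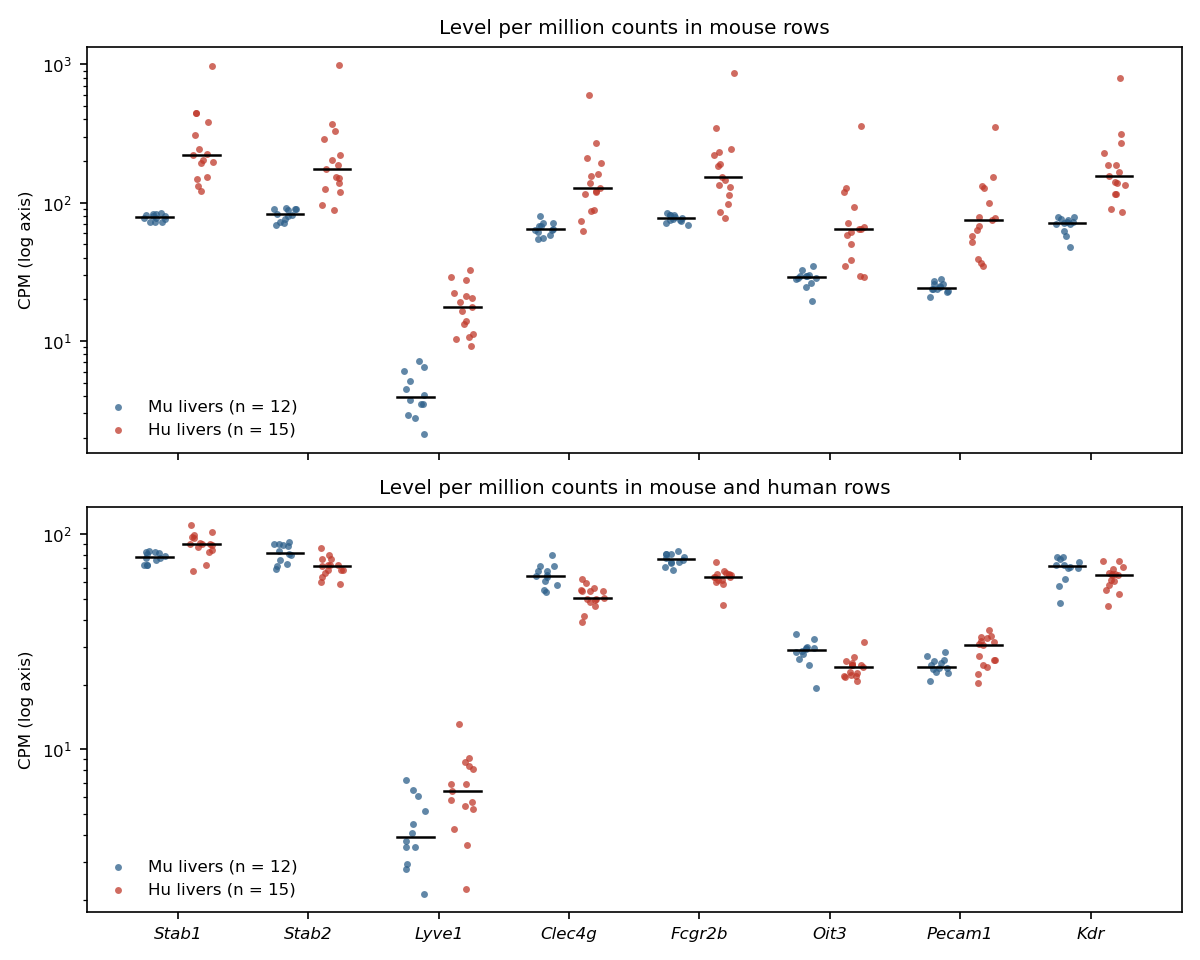
CPM (log axis) of the 8 genes in 12 Mu and 15 Hu livers, scaled to counts in mouse rows (upper panel) and in mouse and human rows together (lower panel), with 1 point per liver and a line at the median. In the upper panel Hu medians are higher for all 8 genes, for example 17.5 against 3.91 CPM for Lyve1, and in the lower panel the ranges of the arms overlap for all 8.

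Scaled by length, the genes kept much of their order between arms. In Mu livers Clec4g was highest with 26.0 CPM of mouse rows per kb of exon (median), then Fcgr2b with 13.3, Oit3 with 10.4, Stab2 with 9.38, Kdr with 7.90, Stab1 with 7.62, Pecam1 with 3.89 and Lyve1 with 1.34. Clec4g stood apart from Fcgr2b without overlap (the highest Fcgr2b value was 14.5), and Lyve1 and Pecam1 stood apart at the bottom. The Mu ranges of Fcgr2b and Oit3, and those of Oit3, Stab2, Kdr and Stab1, overlapped, so their order within these runs is within the spread. In Hu livers the medians per kb were 52.0 for Clec4g, 26.5 for Fcgr2b, 23.3 for Oit3, 21.4 for Stab1, 20.0 for Stab2, 17.4 for Kdr, 12.1 for Pecam1 and 5.98 for Lyve1, with overlapping ranges between neighbours throughout.

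The members' level in mouse rows was also compared with the human share of the library. The share and the mouse-row denominator are parts of the same library total. Before TMM, a gene with an even level in all rows therefore rises in mouse rows as the share grows. Within the 15 Hu livers, edgeR fitted the level on the share with the time of day in the model, and 7 of 8 members rose with the share in mouse rows, where 22.9% of all 13879 genes tested had an upward call. Slopes of those 7 genes were 0.28 to 0.34 (log2 per 10 percentage points of human share). Lyve1 had a slope of 0.13 ± 0.05 (adjusted p = 0.0635, edgeR) and was not called. DESeq2 called it as well (0.14, adjusted p = 0.034), as did edgeR without the shallow ZT 22 replicate 2 library (0.12, adjusted p = 0.0299). The steepest member was Stab2, with 0.34 ± 0.04 (adjusted p = 0.000122, edgeR). In the Hu liver with 15.9% human counts Stab2 had 95.5 CPM of mouse rows, in that with 54.3% it had 138.2, in that with 73.9% it had 330, and in that with 93.1% it had 980.0. A slope of this sign was also found for 18 of 18 pan-endothelial genes and for 8 of 8 stellate cell genes, whereas 5 of 10 mouse hepatocyte genes fell with the share and 0 rose.

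Raw counts of the members changed far less than these levels. Leaving out the shallow ZT 22 replicate 2 library, whose total was the lowest, the 14 other Hu livers had 7474 to 11509 counts of Stab1, 6209 to 9459 of Stab2, 4149 to 6583 of Clec4g and 4927 to 8444 of Kdr. The ranges of Fcgr2b (4955 to 8032), Oit3 (2172 to 3078) and Pecam1 (2116 to 3882) were as narrow. Their highest counts were 1.42 to 1.83 times the lowest, while mouse-row CPM over the 15 Hu livers spanned 8.05-fold (Stab1) to 12.4-fold (Oit3). Lyve1 was the exception in both directions, with 250 to 1116 counts (4.46-fold) and a mouse-row range of 3.51-fold.

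The whole library, human rows included, was then used as the denominator. On that scale the slope on human share was called for 0 of 8 members by edgeR (0 also at an unadjusted p under 0.05), where 80.6% of all genes tested had a slope in either direction and the median slope of all genes was -0.31. Members' slopes were -0.16 to 0.02 with a median of -0.02. Stab2 had a slope of 0.02 ± 0.04 and Clec4g of -0.04 ± 0.04. Lyve1 had the steepest, -0.16 ± 0.08 (adjusted p = 0.0715, edgeR). Its level was 2.25 CPM of all rows in the liver with the highest human share and 8.73 in that with the lowest. The highest Lyve1 level was 13.2 CPM, in the shallow ZT 22 replicate 2 library with a share of 52.5%. Among pan-endothelial genes 0 of 18 were called, while 10 of 10 hepatocyte genes fell with the share, with a median slope of -0.59. Mouse rows are what the human share leaves of the total, so mouse counts as a whole must fall with the share on this scale. Of 13879 genes tested, 11106 were called downward and 76 upward, so the direction of the hepatocyte slopes was that of most genes. A gene's slopes on this scale and in mouse rows are thus not independent results.

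**Figure D2:**
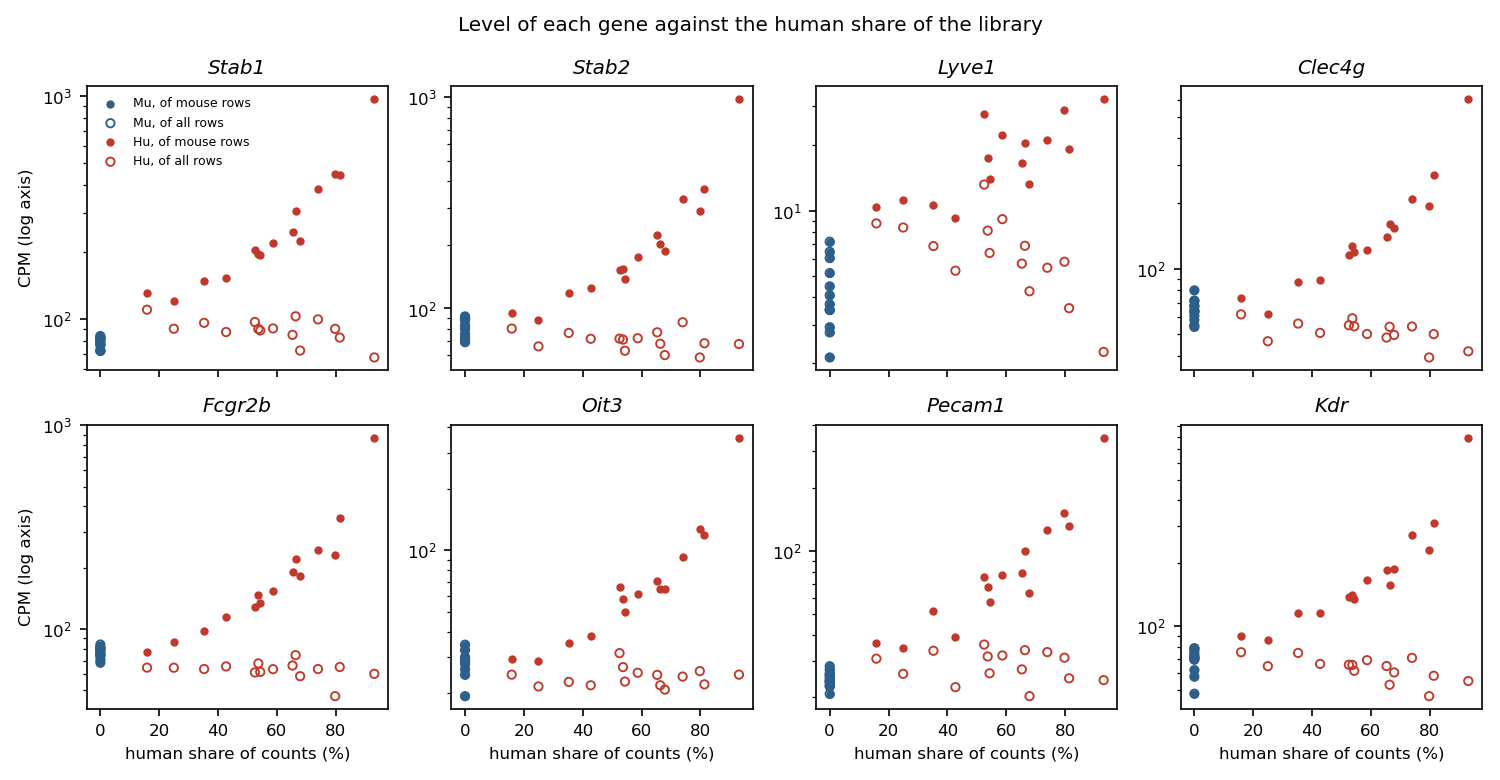
CPM (log axis) of each gene against the human share of counts (%), with filled points scaled to mouse rows, open points scaled to all rows, red for 15 Hu livers and blue for 12 Mu livers (for which both values are nearly equal and the points coincide). Filled red points climb with the share for 7 genes and scatter more for Lyve1, whose slope was not called. Open red points had no called slope. For Stab1 12 of 15 of them lie above every Mu liver, and for Fcgr2b 14 of 15 lie below. Those of Lyve1 are 8.73 CPM at the lowest and 2.25 CPM at the highest share, with the highest value, 13.2 CPM, at a share of 52.5%.

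With all rows as the denominator, the fitted difference between Hu and Mu livers was smaller in size for each member than in mouse rows. edgeR called 1 of 8 members higher (17.5% of all genes were called higher) and 2 of 8 lower (60% of all genes were called lower), and the members' median difference was -0.19 against -0.68 over all genes. Lyve1 was the gene called higher, with 2.12, 3.91 and 7.20 CPM of all rows in Mu and 2.25, 6.39 and 13.2 in Hu livers. The groups overlapped, 5 of 15 Hu livers were above every Mu liver, and the difference was 0.60 ± 0.20 (adjusted p = 0.00882, edgeR). Clec4g was lower by this measure, with 54.2, 64.1 and 79.7 CPM in Mu and 39.2, 50.8 and 61.8 in Hu livers and a difference of -0.34 ± 0.12 (adjusted p = 0.0146, edgeR). Fcgr2b was also lower, with 68.4, 77.0 and 83.9 CPM in Mu and 46.8, 63.6 and 74.4 in Hu livers. Of 15 Hu livers, 14 lay below every Mu liver for Fcgr2b, and the difference was -0.28 ± 0.12 (adjusted p = 0.0367, edgeR).

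The other 5 members had all-row differences that did not pass the test. Stab1 had 72.0 to 84.0 CPM of all rows in Mu and 67.3 to 110.2 in Hu livers, and 12 of 15 Hu livers were above every Mu liver, but the fitted difference was 0.19 ± 0.13 (adjusted p = 0.172, edgeR). Pecam1 differed by 0.22 ± 0.12 (adjusted p = 0.0931, edgeR). Stab2 had 69.3 to 91.8 CPM in Mu and 58.7 to 86.1 in Hu livers and differed by -0.23 ± 0.12 (adjusted p = 0.0946, edgeR). Oit3 differed by -0.24 ± 0.12 (adjusted p = 0.0614, edgeR) and Kdr by -0.15 ± 0.13 (adjusted p = 0.293, edgeR). Stab2, Clec4g, Fcgr2b, Oit3 and Kdr thus changed sign between the denominators, and Stab1, Lyve1 and Pecam1 kept a positive one.

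A comparison within the endothelium does not need either total. Each liver was scaled to the geometric mean of 18 pan-endothelial genes, and 2 of 8 members were then called higher in Hu livers (19.2% of all genes were) and 1 of 8 lower (57.7% of all genes were). Lyve1 was higher by 0.65 ± 0.19 (adjusted p = 0.00397, edgeR) and Pecam1 by 0.27 ± 0.10 (adjusted p = 0.0195, edgeR), and Clec4g was lower by -0.28 ± 0.12 (adjusted p = 0.0334, edgeR). Stab1 differed by 0.25 ± 0.12 (adjusted p = 0.0648, edgeR) and was called when the Hu liver ZT 18 replicate 3, with the highest human share, was left out (0.27, adjusted p = 0.0217, edgeR). Stab2 differed by -0.17 ± 0.12, Fcgr2b by -0.22 ± 0.12, Oit3 by -0.18 ± 0.11 and Kdr by -0.08 ± 0.13, none of them called. Clec4g was no longer called without the Hu liver ZT 14 replicate 2 (adjusted p = 0.0635), or without the Mu livers ZT 2 replicate 1 (0.058), ZT 18 replicate 1 (0.0638) or ZT 22 replicate 2 (0.0523), or without the livers of any single time. The calls of Lyve1 and Pecam1 held when any single liver was left out. Without all livers of ZT 6 Lyve1 was no longer called (adjusted p = 0.0504), and Pecam1 was not without ZT 2, 6, 14 or 22 (adjusted p = 0.0552 to 0.12). Scaling to the sum of the pan-endothelial counts instead called Stab2, Fcgr2b and Oit3 lower too (-0.31 to -0.36) and Pecam1 no longer (0.12).

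On this scale the members held steady from liver to liver. Among Hu livers the highest value was 1.28 (Stab2) to 1.64 (Kdr) times the lowest for 7 genes and 4.84 times for Lyve1. Among Mu livers it was 1.195 (Pecam1) to 1.73 (Oit3) times for 7 genes and 3.74 times for Lyve1. Lyve1 was therefore the most variable member in both arms, at a low level. The ratio of Stab1 to Stab2 counts, which needs no scaling at all, was 0.864 to 1.09 in Mu livers (median 0.955) and 0.991 to 1.54 in Hu livers (median 1.26). The pair was singled out after its values had been seen.

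**Figure D3:**
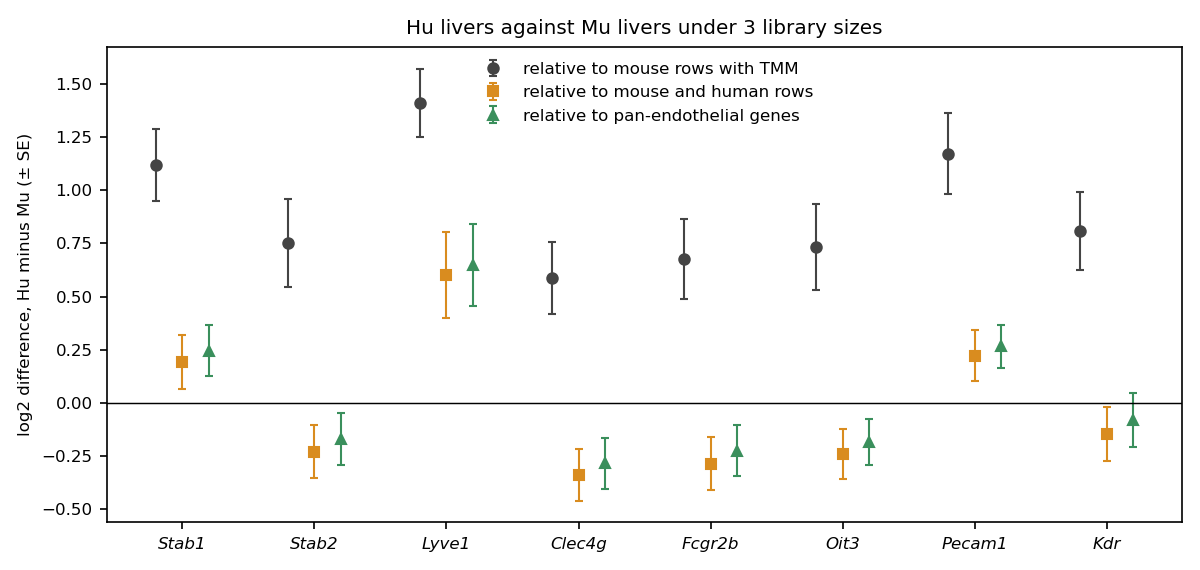
Fitted log2 difference of Hu minus Mu livers (points, with SE bars) for the 8 genes under 3 denominators: mouse rows with TMM, mouse and human rows together, and 18 pan-endothelial genes. All 8 are above 0 relative to mouse rows, from 0.59 to 1.41, while Stab2, Clec4g, Fcgr2b, Oit3 and Kdr lie below 0 under the other denominators.

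Other endothelial genes were read beside the members. Of 12 further sinusoidal genes, 8 were higher and 1 lower in mouse rows. There 42.5% of all genes were higher, and 5542 of 14977 were lower. With all rows as the denominator 3 were higher (17.5% of all genes were) and 6 lower (60% of all genes were), with a median of -0.17. Genes are named here mainly by their p in mouse rows, so most of those lower in all rows are not named. Flt4, the receptor for lymphatic growth factors that sinusoids also carry, was higher on both (1.42 ± 0.10 in mouse rows, adjusted p = 9.72e-12; 0.60 ± 0.16 in all rows, adjusted p = 0.00124, edgeR). So were Plxnc1, a semaphorin receptor (0.45 ± 0.14 in all rows), and Tfpi, a clotting inhibitor (0.30 ± 0.11 in all rows). Aass, a lysine breakdown enzyme, was lower on both (-1.70 ± 0.22 in mouse rows, -2.40 ± 0.31 in all rows). Gata4, a transcription factor of sinusoidal identity named here after its values were seen, differed by 0.33 ± 0.17 in mouse rows (adjusted p = 0.0868, edgeR) and was lower in all rows (-0.59 ± 0.13, adjusted p = 0.000208, edgeR). Pan-endothelial genes were higher for 17 of 18 in mouse rows, with a median of 0.89. In all rows 1 was higher (Ptprb, a junction phosphatase, 0.34 ± 0.16) and 3 were lower (median -0.09, lowest -0.74). Cdh5, the cadherin of endothelial junctions, had an all-row difference of 0.18 ± 0.12 and Ecscr, a cell surface protein of endothelium, of 0.26 ± 0.14, neither called.

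Genes of larger vessels and of activated endothelium had more members called higher than lower in Hu livers on each denominator. In mouse rows 12 of 12 were higher (42.5% of all genes were), with a median of 1.28. In all rows 6 were higher (17.5% of all genes were) and 1 lower (60% of all genes were), with a median of 0.41. Relative to pan-endothelial genes 8 were higher (19.2% of all genes were) and 1 lower (57.7% of all genes were). Cd34, a marker of continuous capillaries, had 3.65, 4.86 and 9.52 CPM of all rows in Mu and 5.71, 10.3 and 24.9 in Hu livers, a difference of 1.201 ± 0.203 (adjusted p = 7.93e-06, edgeR). Vwf, the clotting factor that large-vessel endothelium stores, had 7.04, 9.20 and 15.3 CPM in Mu and 13.2, 18.7 and 27.9 in Hu livers, a difference of 0.999 ± 0.162 (adjusted p = 4.61e-06, edgeR). Both genes had higher medians in Hu livers with overlapping ranges. Vcam1, a leukocyte adhesion protein, was higher by 0.51 ± 0.20 (adjusted p = 0.0198, edgeR).

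Signals that endothelial cells and their neighbours send to hepatocytes were mostly higher as well. In mouse rows 8 of 8 such genes were higher (42.5% of all genes were), with a median of 1.51 against 0.07 over all genes. In all rows 7 of 8 were higher (17.5% of all genes were), with a median of 0.58 against -0.68 over all genes. Hgf, hepatocyte growth factor, which stellate cells make too, had 3.11, 9.80 and 15.6 CPM of all rows in Mu and 14.4, 25.9 and 58.7 in Hu livers, a difference of 1.71 ± 0.25 (adjusted p = 1.22e-06, edgeR). Dkk3, a secreted protein of the Dickkopf family, was higher by 1.52 ± 0.22 and Bmp6, a signal for iron sensing in hepatocytes, by 0.78 ± 0.19. The central vein Wnt signals, named after their values were seen, were higher by 0.49 ± 0.16 for Wnt2 (adjusted p = 0.00585, edgeR), 0.47 ± 0.19 for Wnt9b (adjusted p = 0.024, edgeR) and 0.35 ± 0.16 for the Wnt enhancer Rspo3 (adjusted p = 0.0442, edgeR). Among 13 genes of growth factor signalling to endothelium, in all rows 3 were higher (17.5% of all genes were) and 4 lower (60% of all genes were). The ligand gene Vegfa, which hepatocytes make, had 127.9 to 299 CPM of all rows in Mu and 17.4 to 126.2 in Hu livers and was lower by -1.97 ± 0.25 (adjusted p = 1.09e-07, edgeR), and Vegfb was lower by -1.59 ± 0.19. Human VEGFA was not analysed here, because the human rows carry no names. Angpt1, the angiopoietin that keeps vessels quiet, was higher by 1.47 ± 0.19 and its antagonist Angpt2 by 0.66 ± 0.22.

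Markers of other mouse cells were read in the same way. Summed levels in mouse rows were 686 to 5059 CPM for 8 Kupffer cell genes in Hu livers against 466.2 to 838.7 in Mu livers, and 619 to 10551 CPM for 8 stellate cell genes against 476 to 646. Kupffer cell genes were higher for 5 of 8 in mouse rows (42.5% of all genes were). In all rows 4 of 8 were lower (60% of all genes were) and none was higher (17.5% of all genes were). Their all-row median was -0.33, against -0.68 over all genes. Csf1r, the macrophage growth factor receptor, differed by 0.26 ± 0.17, Adgre1 by 0.15 ± 0.15 and C1qa by -0.26 ± 0.17 in all rows, none called. The 4 lower in all rows, named after their values were seen, were Clec4f (-0.75 ± 0.20), Timd4 (-0.59 ± 0.15), Cd5l (-0.58 ± 0.18) and Vsig4 (-0.40 ± 0.17), which are typical of resident Kupffer cells. Stellate cell genes, with Hgf counted here again, were higher for 4 of 8 and lower for 1 in all rows. Pdgfrb, their growth factor receptor, was higher by 0.91 ± 0.19. Reln, which stellate and lymphatic cells both make, was higher by 1.08 ± 0.21. It was the single lymphatic gene called higher of 4 tested in all rows (median -0.27), Prox1, the lymphatic transcription factor, which hepatocytes also express, was lower (-0.87 ± 0.28, adjusted p = 0.00594, edgeR), and Pdpn (-0.27 ± 0.28) and Mmrn1 (-0.26 ± 0.42) were not called. All 6 bile duct genes were higher in all rows (Cftr by 1.44 ± 0.23, Spp1 by 1.30 ± 0.21, Sox9 by 0.41 ± 0.18), and all 10 hepatocyte genes were lower (Fah by -5.99 ± 0.35, Cyp2e1 by -5.39 ± 0.42, Ass1 by -3.06 ± 0.43). The part of these cells in the members' values was not tested.

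**Figure D4:**
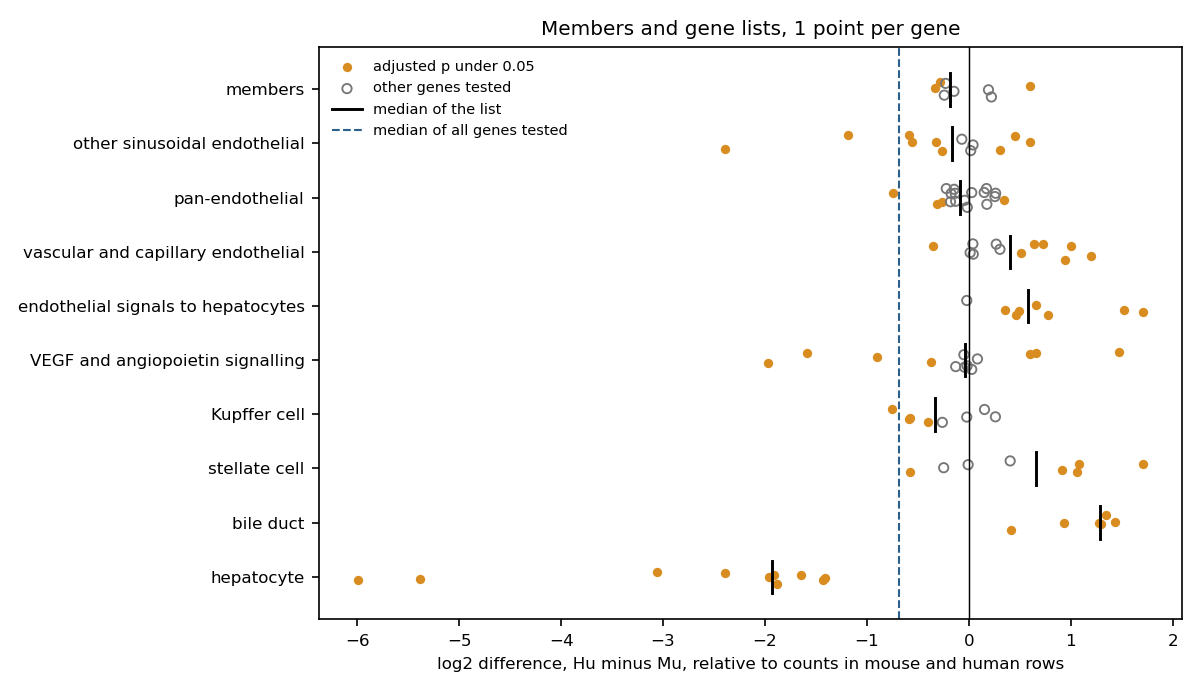
Fitted log2 difference of Hu minus Mu livers relative to counts in mouse and human rows, 1 point per gene, for the members and 9 gene lists, with filled points for genes called by edgeR, a bar at each list's median and a dashed line at the median of all genes (-0.68). Members have a median of -0.19, vascular and capillary genes of 0.41, endothelial signals of 0.58, Kupffer cell genes of -0.33 and hepatocyte genes of -1.94.

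Early response and heat shock genes, which also react to how tissue is handled, were higher for 4 and lower for 2 of 6 in mouse rows. Of all 14977 genes tested, 6365 were higher and 5542 lower. The 2 lower calls were not made without TMM. The immediate early genes Atf3 (1.73 ± 0.17) and Fos (1.55 ± 0.27) were higher in Hu livers, and the heat shock genes Hspa1a (-1.17 ± 0.33) and Hspa1b (-1.12 ± 0.29) were lower. Their part in the members' values was not tested.

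No member had a daily rhythm that passed the test. edgeR's test of a 24 h cosine called 0 of 8 members in Mu livers (17.3% of all genes were called) and 1 at an unadjusted p under 0.05, and DESeq2 called 0. In Hu livers it called 0 of 8 (0.167% of all genes were called), and DESeq2 called 0. At an unadjusted p under 0.05 edgeR gave 6 of 8 in mouse rows, but 0 with all rows and 0 relative to pan-endothelial genes. The share of all genes at the unadjusted threshold was not computed for these rhythm tests. The difference between the arms' rhythms was called for 0 of 8 (1.28% of all genes were called), for 1 at an unadjusted p under 0.05 and for 0 by DESeq2. Without the Hu liver ZT 2 replicate 2, which had 73.9% human counts while the others of that time had 15.9 and 35.3%, 5 members were called in Hu livers (Stab1, Clec4g, Fcgr2b, Oit3 and Pecam1, adjusted p = 0.0335 to 0.0415, edgeR), where 5.54% of all genes were called.

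The single member with an unadjusted p under 0.05 in Mu livers was Lyve1. Its Mu levels were 2.92 and 4.49 CPM of mouse rows at ZT 2, 2.12 and 4.09 at ZT 6, 2.76 and 6.47 at ZT 10, 5.17 and 6.05 at ZT 14, 3.51 and 7.20 at ZT 18, and 3.50 and 3.72 at ZT 22. The replicates lay far apart at ZT 10 and ZT 18 and close together at ZT 22. The fitted amplitude, from mean to peak, was 0.43 (log2) with a peak at ZT 15.7 (adjusted p = 0.145, edgeR). The other 7 members had amplitudes of 0.07 (Stab1) to 0.16 (Clec4g) in Mu livers.

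In Hu livers the fitted mouse-row curves of all 8 members peaked between ZT 14.4 and ZT 15.2, with amplitudes of 0.23 (Lyve1) to 0.64 (Oit3; adjusted p = 0.171, edgeR). The human share was unevenly spread over these times. It was 15.9, 35.3 and 73.9% at ZT 2, 24.96, 58.7 and 65.3% at ZT 6, 66.3 and 81.3% at ZT 10, 67.9 and 79.8% at ZT 14, 53.7, 54.3 and 93.1% at ZT 18, and 42.7 and 52.5% at ZT 22. All livers at ZT 10 and ZT 14 had shares above the Hu median of 58.7%, while those at ZT 18 lay on both sides of it. No rhythm fit held the share as a term, so the part of the share in these peaks was not tested. With all rows as the denominator the Hu peaks ran from ZT 21.8 (Oit3) past lights on to ZT 4.30 (Fcgr2b), and amplitudes were 0.07 (Fcgr2b) to 0.37 (Lyve1; adjusted p = 0.233, edgeR). Relative to pan-endothelial genes the Hu amplitudes were 0.02 (Stab2) to 0.13 (Oit3) for 7 members and 0.22 for Lyve1 (adjusted p = 0.586, edgeR).

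**Figure D5:**
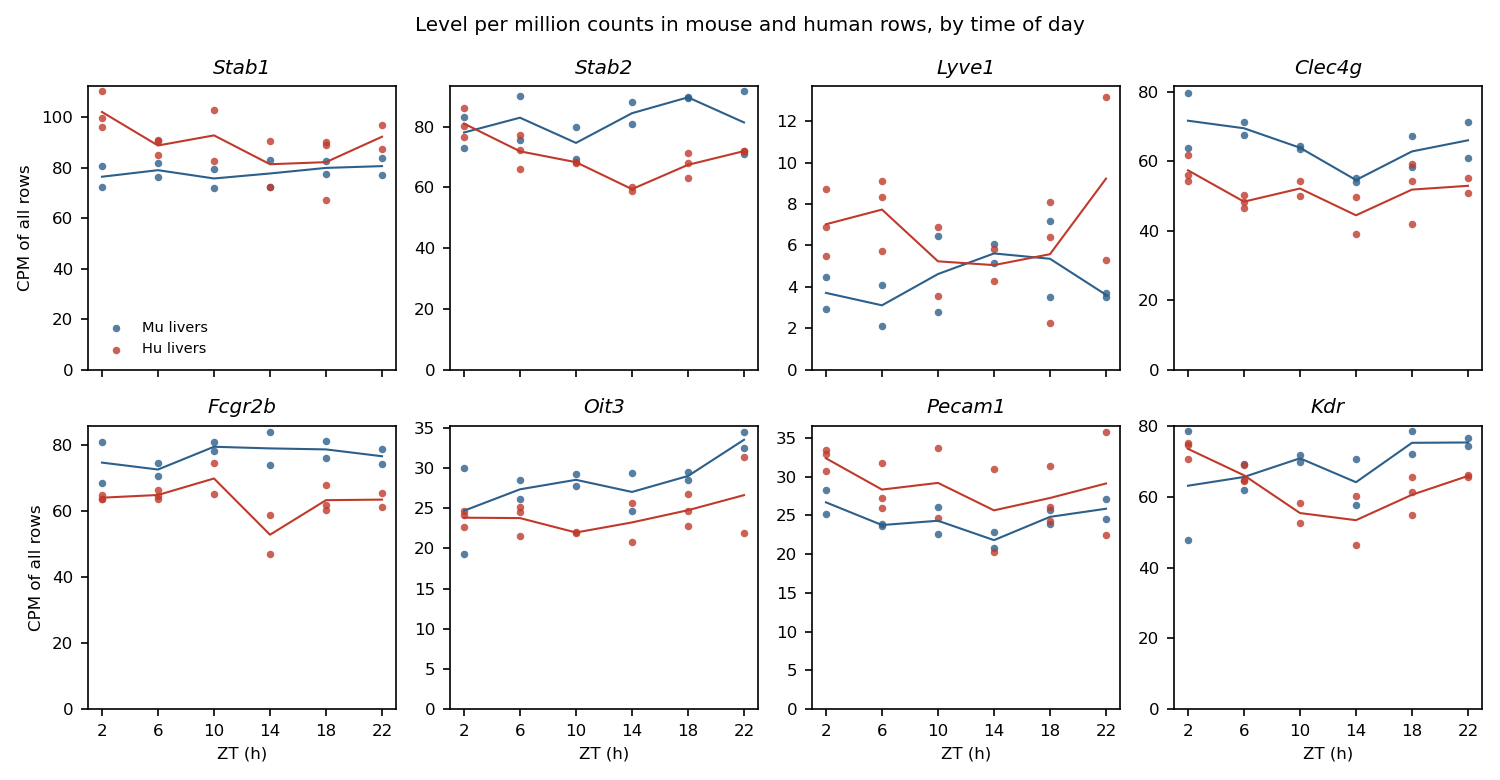
CPM of all rows by ZT (h) for the 8 genes, with 1 point per liver (red Hu, blue Mu), lines through the means of each time and axes that start at 0. Means of Stab1 in Mu livers stay between 75.7 and 80.6 CPM, while means of Stab2 in Hu livers run from 59.4 CPM at ZT 14 to 81.0 at ZT 2 and those of Kdr in Hu livers from 53.5 at ZT 14 to 73.7 at ZT 2.

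The genes whose profile came closest to the members were looked for outside all lists, by Pearson correlation of log2 CPM of mouse rows with the mean of the members' standardised values. Over the 15 Hu livers these were Arhgap31 (r = 0.993), Itpkb (r = 0.990), Ripply3 (r = 0.990), Arap3 (r = 0.987) and Unc45b (r = 0.986). Over the 12 Mu livers they were Zfand4 (r = 0.904), Rbm47 (r = 0.876), Ppp1r16b (r = 0.875), Slc10a2 (r = 0.869) and Ptprj (r = 0.868), and no gene was in both sets. These are descriptions over livers that share a denominator, and in Hu livers they share the human share as well. Members themselves correlated with their own mean at r = 0.963 to 0.992 in Hu livers, except Lyve1 at r = 0.674. In Mu livers the values were 0.0910 for Lyve1, 0.137 for Clec4g, 0.447 for Pecam1 and 0.7065 (Fcgr2b) to 0.851 (Stab1) for the other 5.

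Outside the liver, Clec4g and Oit3 were all but silent. Clec4g had 0 to 9 counts per muscle library and 0 or 1 in ARC and SCN, and Oit3 had 0 to 35 in muscle, 0 to 5 in ARC and 0 to 7 in SCN, so 6 of 8 members passed the filter on low counts there. In muscle 5 of these 6 differed between arms (26.9% of all genes were called in either direction), 4 higher and 1 lower in Hu mice. Lyve1 was higher by 1.003 ± 0.206 (adjusted p = 0.00125, edgeR), with 5.13, 8.97 and 17.9 CPM in 12 Mu and 9.87, 21.1 and 38.9 in 15 Hu muscles. Fcgr2b was higher by 0.83 ± 0.19 (adjusted p = 0.00296, edgeR), Stab2 by 0.79 ± 0.14 (adjusted p = 0.00041, edgeR) and Stab1 by 0.43 ± 0.11 (adjusted p = 0.00752, edgeR).

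Stab2 had 15.2, 23.3 and 32.7 CPM in Mu and 27.1, 35.8 and 60.3 in Hu muscles. Kdr, in contrast, was lower by -0.61 ± 0.10 (adjusted p = 0.000242, edgeR), with 57.2, 109.7 and 155 CPM in Mu and 47.0, 67.6 and 109.7 in Hu muscles. Pecam1 differed by -0.16 ± 0.09 (adjusted p = 0.199, edgeR), and by -0.23 (adjusted p = 0.0384, edgeR) without the Hu muscle ZT 14 replicate 2. Ranges of all these genes overlapped between the arms. Of the 18 pan-endothelial genes, 8 were lower and 0 higher in Hu muscle, whereas of 6 Kupffer cell or macrophage genes tested there 6 were higher. Of all 14197 genes tested in muscle, 1923 were higher and 1894 lower. The part of macrophages in the muscle values was not tested.

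In both brain regions no member was called, and almost no gene of any kind was, so this is not particular to the members. edgeR called 0 of 6 members in ARC (0.00663% of all genes were called), 1 at an unadjusted p under 0.05 and 0 by DESeq2, and in SCN 0 of 6 (0% of all genes were called), 0 at an unadjusted p under 0.05 and 0 by DESeq2. Differences were 0.11 to 0.48 in ARC and -0.09 to 0.22 in SCN. Stab2 was the member under the unadjusted threshold in ARC (0.48 ± 0.18, unadjusted p = 0.0135, adjusted p = 0.953, edgeR). At that threshold 640 of 15079 genes passed in ARC. Pecam1 had 8.88 to 15.7 CPM in Mu and 8.48 to 17.8 in Hu ARC, and Kdr had 6.60 to 15.1 and 7.05 to 18.8, with overlapping groups. Stab2 had 0.679 to 2.65 CPM in Mu and 0.980 to 2.20 in Hu ARC, and Lyve1 stayed under 1 CPM in ARC.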

How the data were processed

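The authors deposited raw counts per gene, 1 column per library, with no normalization per the file values; per the submitters' processing notes STAR and the builds GRCm38 and GRCh38 (with mm10, hg19 and hg38) were used, and the counting program is not given in the sources used here. Per the labels' protocols, RNA was column purified and the libraries kept strand. Reads shared by mouse and human copies, or by Fcgr2b and its neighbouring paralogs, may have been counted to either. Symbols were matched for 19615 of 19689 mouse rows and 0 of 17729 human rows. All 98 columns were used; 2 Hu columns at ZT 22 (ARC, SCN) were placed in their group without a replicate number.

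CPM are counts over the library total stated. edgeR 4.0.16 in R 4.3.3 fitted mouse rows of 27 livers with TMM (trimmed mean of M values), filterByExpr by arm, the arm, and a cosine and sine of 24 h per arm; factors were 1.03 to 1.81 in Hu and 0.731 to 0.875 in Mu livers. The same model used all-row totals or the geometric mean of 18 pan-endothelial counts (plus 1) without TMM, and other tissues with TMM. Slopes used the 15 Hu livers with share and time terms. Correlations used log2 CPM with a prior count of 2. Benjamini-Hochberg adjusted p-values under 0.05 over all genes were called. SEs are the log2 difference over the root of F. Scripts were tested on simulated data. DESeq2 1.42.0, other scalings, no filter, a replicate block, and leaving out libraries or times were alternatives.

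Members and lists were chosen with earlier results of these data known. From each list the 3 genes higher and 3 lower with the smallest p in mouse rows are named, plus markers near 0; others are marked. Whether equal replicate numbers pair livers is not known. The 12 pairs had correlations of 0.0129 to 0.312 (mean 0.115), 7 of them over 0.1. Both replicates gave the same value at ZT 10 (0.0129), ZT 14 (0.135) and ZT 22 (0.150). The values are therefore not all independent, and the check cannot decide on pairing. The labels do not say that replicates are separate mice, so p-values measure the spread between samples. Depth was 23.7 M to 92.1 M counts in other tissues (M for 1000000).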

Additional observations from a re-analysis of the deposited data

Results flagged for a closer look

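Members were checked in ARC and SCN of the Hu arm, the groups with 10 libraries, for a library far from the others relative to the range. Of 16 groups checked 4 stood out. The share of about 1 in 20 that chance gives does not apply to these 4, since 2 rest on a single count and the other 2 on the same library. In SCN, the Hu library ZT 6 replicate 1 had 29.9 CPM of Stab1, and the next highest had 13.5. The same library had 2.10 CPM of Lyve1, against 0.779 in the next highest, and it was also highest for Pecam1 (34.4 CPM) and Kdr (27.7 CPM). Clec4g had 1 count in 1 library of each region (0.0258 CPM in ARC and 0.0309 CPM in SCN) and 0 in the other 9. No cause was tested.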

How the results depend on the processing

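Of 2955 values under alternatives, 2811 stayed the same by a rule that depended on the kind of value. Differences and slopes kept their direction and side of the threshold, rhythms kept their side, and counts changed by at most 1.5 times. Of the rest, 80 counts moved further, 25 values changed sign, 23 lost and 16 gained a call. The cause was not tested. With all rows as the denominator 1 member was higher and 2 were lower, and the differences of Stab2 (-0.23), Clec4g (-0.34), Fcgr2b (-0.28), Oit3 (-0.24) and Kdr (-0.15) were negative, as were the slopes of Stab1 (-0.034), Lyve1 (-0.16), Clec4g (-0.037), Fcgr2b (-0.011) and Kdr (-0.022), with 0 members and 11182 genes called for the slope. The 8 members higher in mouse rows stayed called when any single liver was left out.

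Relative to endothelial genes the 3 calls became 5 with summed counts, 1 without the filter, 1 without ZT 2, 14 or 22, 0 without ZT 6, and 2 to 4 without a single liver. Slopes were called for 7 to 8 members without a single liver and for 3365 to 6227 of all genes (main 5792; 3365 without the Hu liver ZT 18 replicate 3), and for 2846 without both doubted Hu livers (ZT 22 replicate 2 and ZT 18 replicate 3, chosen after seeing the data).

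Counts of rhythmic genes were least stable. In Mu livers 2598 became 85 with all rows, 1715 without ZT 2, 1364 without ZT 10, 919 without ZT 14, 1279 without ZT 18, 1470 without ZT 22, and 1460 to 3559 without a single liver. In Hu livers 25 became 516 with DESeq2, 8627 with all rows, 7 with replicates 1 and 2 only, 41 without both doubted livers, 6, 12, 14, 6, 41 and 10 without ZT 2, 6, 10, 14, 18 and 22, and 8 to 827 without a single liver, with 0 to 5 members. For the difference of rhythms 192 became 1129 with DESeq2, 111 without TMM, 11 with all rows, 107 without the filter, 95 with replicates 1 and 2 only, 25, 39, 30, 4, 73 and 8 without ZT 2, 6, 10, 14, 18 and 22, and 38 to 1009 without a single liver.

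In ARC 1 gene became 14 with DESeq2 and 1 to 2 without a library, and in SCN 0 became 1 with DESeq2 and 0 to 1. Uncalled SCN differences spanned 0 without a library: -0.178 to 0.136 for Stab1, -0.246 to 0.200 for Lyve1 (-0.00978 without the unnumbered ZT 22 library), -0.224 to 0.0322 for Fcgr2b and -0.0364 to 0.207 for Pecam1. A replicate block, whose pairing of livers is not known, left 8 members higher in liver, 7 slopes, 5 calls in muscle and 0 rhythms. It gave 4 calls relative to endothelial genes (Stab1 added), 1490 genes with a slope, and -0.0666 for Lyve1 in SCN.

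Low depth limits Clec4g and Oit3 outside the liver, where a few counts set their values, and Lyve1 in Hu livers, which rests on 250 counts at the lowest outside the shallow library.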
